A study of Mus musculus with 6 samples.

Results

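The 35 genes described here encode the machinery of glycolysis (25 genes) and further response genes of hypoxia (10 genes). They were listed by name for what their products are known to do. All 35 were among the 23557 genes of the deposited RNA-seq table, and all 35 passed the filter on low values, a mean of at least 0.5 CPM (counts scaled to library size) over the 6 tumors, as 13118 genes did. The tumors were grown from CT26, a single colon carcinoma cell line of BALB/c origin, by subcutaneous injection of 500000 cells into female BALB/c mice aged 7 weeks. From day 6, 1 group received H89, an inhibitor of protein kinase A and of several other kinases, at 10 mg/kg in NaCl by intraperitoneal injection 2 times a week. The control group received NaCl alone. No altered allele is named for either group. RNA was taken from whole tumors on day 14, from 3 tumors per group, each labelled as a sample of its own. Total estimated counts ran from 27067349 to 31958793 per tumor.

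Each value below is a sum over tumor cells, vessels, fibroblasts and immune cells, so that fewer cells of a type and less RNA per cell cannot be told apart. The epithelial genes Epcam and Cldn4 were near 0 in these tumors, at or below 1.16 and 0.631 CPM. Cd44 lay between 409.9 and 598 normalized CPM. Krt18 was at 13.2, 13.4 and 23.6 normalized CPM in NaCl and at 8.31, 7.76 and 8.27 in H89 tumors, without overlap. Of 6 epithelial markers tested, 4 were estimated higher and 2 lower in H89 tumors. The groups did not overlap for 2 of the 6 (33.3%), against 30.7% of all genes. H89 tumor 1 stood apart in skeletal muscle markers, whose sum over 6 tested genes was 24.9 normalized CPM there and 3.36 to 5.75 in the other 5 tumors. Normalized CPM are CPM divided by the TMM factor of the library, a scaling that sets the bulk of genes equal between libraries.

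Glycolysis splits glucose into pyruvate, which lactate dehydrogenase turns into lactate when it is not passed to the mitochondrion. Many tumors use it heavily even where oxygen is present. When oxygen falls, prolyl hydroxylases of the EGLN family stop marking the alpha subunit of HIF, the hypoxia-inducible factor, for removal by VHL. HIF then pairs with ARNT, binds a short core motif in DNA and raises nearly every step of glycolysis, together with genes for pH control, mitophagy, collagen hydroxylation and feedback on HIF itself.

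The HIF core motif, ACGTG or GCGTG, was searched on both strands in promoter windows of 300 bases, from 250 before to 50 after the transcription start given by RefSeq on build GRCm38.p6. A window was found for 33 of the 35 genes (all but Slc2a3 and Ndrg1). In 30 of these 33 genes (90.9%) at least 1 window held the motif, compared with 65.9% of the 10375 tested genes with a window and 46.7% of 27025 genes in all. Genes with several windows have more room for a match. Counted by window, 39 of 48 (81.2%) held the motif, compared with 43.8% of all 32851 windows. At least 2 matches in a window were found for 23 of the 33 (69.7%), compared with 37.0% of the tested genes. The palindrome CACGTG counts as 2 overlapping matches, and a match is a stretch of letters, not a shown binding site. As the list includes known HIF targets, these shares describe the list and not the tumors. The windows below belong to the 3 genes whose levels varied most between tumors of a group (Car9, P4ha2 and Bnip3) and to the 3 whose H89 and NaCl values did not overlap (Aldoc, Eno1 and Slc16a1). They are written 5′ to 3′ on the strand of the gene, with the motif or its reverse complement in capitals. For Aldoc and Eno1, which have several starts, the first listed window is shown.
Car9, chr4:43506776-43507075, plus strand: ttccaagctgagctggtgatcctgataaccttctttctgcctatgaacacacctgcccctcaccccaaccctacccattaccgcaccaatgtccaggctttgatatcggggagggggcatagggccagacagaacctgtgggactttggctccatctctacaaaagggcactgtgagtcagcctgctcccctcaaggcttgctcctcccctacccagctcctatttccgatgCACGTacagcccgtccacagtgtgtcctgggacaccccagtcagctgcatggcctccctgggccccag
P4ha2, chr11:54100674-54100973, plus strand: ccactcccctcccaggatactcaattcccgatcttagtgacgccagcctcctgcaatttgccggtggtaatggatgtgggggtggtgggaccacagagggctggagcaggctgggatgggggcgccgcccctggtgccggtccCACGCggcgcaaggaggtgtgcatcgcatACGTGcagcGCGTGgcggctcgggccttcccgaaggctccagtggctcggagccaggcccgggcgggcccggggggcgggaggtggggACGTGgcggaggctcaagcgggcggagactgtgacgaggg
Bnip3, chr7:138909457-138909756, minus strand: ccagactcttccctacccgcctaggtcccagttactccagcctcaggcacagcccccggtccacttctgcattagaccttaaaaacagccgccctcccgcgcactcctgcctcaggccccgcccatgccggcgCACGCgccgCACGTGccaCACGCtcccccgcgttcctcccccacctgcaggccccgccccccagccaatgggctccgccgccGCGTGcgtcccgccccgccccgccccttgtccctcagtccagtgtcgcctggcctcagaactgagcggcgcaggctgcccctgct
Aldoc, chr11:78322823-78323122, plus strand: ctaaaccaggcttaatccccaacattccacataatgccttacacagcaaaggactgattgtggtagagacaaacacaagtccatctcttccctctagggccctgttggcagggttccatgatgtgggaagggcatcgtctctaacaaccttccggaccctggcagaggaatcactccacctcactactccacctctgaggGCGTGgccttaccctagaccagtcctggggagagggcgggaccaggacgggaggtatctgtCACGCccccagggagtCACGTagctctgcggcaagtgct
Eno1, chr4:150236458-150236757, plus strand: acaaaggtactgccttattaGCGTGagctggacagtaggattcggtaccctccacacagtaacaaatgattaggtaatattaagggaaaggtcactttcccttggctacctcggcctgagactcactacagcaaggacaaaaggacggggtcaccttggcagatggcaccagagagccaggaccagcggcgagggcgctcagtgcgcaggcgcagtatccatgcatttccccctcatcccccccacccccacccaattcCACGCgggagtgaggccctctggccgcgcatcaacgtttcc
Slc16a1, chr3:104638414-104638713, plus strand: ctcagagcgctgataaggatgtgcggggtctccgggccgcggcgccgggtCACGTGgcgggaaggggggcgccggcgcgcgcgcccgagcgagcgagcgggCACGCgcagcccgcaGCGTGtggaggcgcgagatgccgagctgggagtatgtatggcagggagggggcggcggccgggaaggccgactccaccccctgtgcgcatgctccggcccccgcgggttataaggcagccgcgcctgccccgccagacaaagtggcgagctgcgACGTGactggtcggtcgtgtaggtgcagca
Bnip3 and Slc16a1 each carried 5 matches, 2 of them from 1 palindrome. P4ha2 carried 4 and Aldoc 3. Car9, the gene with the widest spread, carried 1.

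To ask whether H89 moved these genes, each of the 13118 genes was tested between 3 H89 and 3 NaCl tumors with edgeR's quasi-likelihood test and Benjamini-Hochberg adjustment over all of them. None of the 35 genes had an adjusted p under 0.05, where 1.59% of all genes did (0.861% higher and 0.724% lower in H89 tumors). DESeq2 called 1 of the 35 (Aldoc), where it called 10.4% of the 13350 genes to which it gave an adjusted p. An unadjusted p under 0.05 was reached by 3 of the 35 (8.57%), against 25.0% of all genes (13.1% higher, 11.9% lower). The same 3 genes were those whose H89 and NaCl values did not overlap (8.57%), against 30.7% of all genes (15.2% higher, 15.5% lower). With library totals in place of TMM, Aldoc and Slc16a1 were without overlap and Eno1 was not, against 30.4% of all genes. Aldoc was higher in H89 tumors, and Eno1 and Slc16a1 were lower. The median log2 fold change was -0.08 over the 35 genes and 0.00 over all genes tested, and it was 0.06 over the 35 with quantile normalization and -0.00 without TMM. It was also above 0 without NaCl tumor 1 (0.16) or without H89 tumor 2 (0.07). Of the 35 estimates, 14 were above 0 and 21 below, and they ran from -0.78 (Egln3) to 1.20 (Car9). Their standard errors had a median of 0.29 on the log2 scale, compared with 0.13 over all genes.

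**Figure D1:**
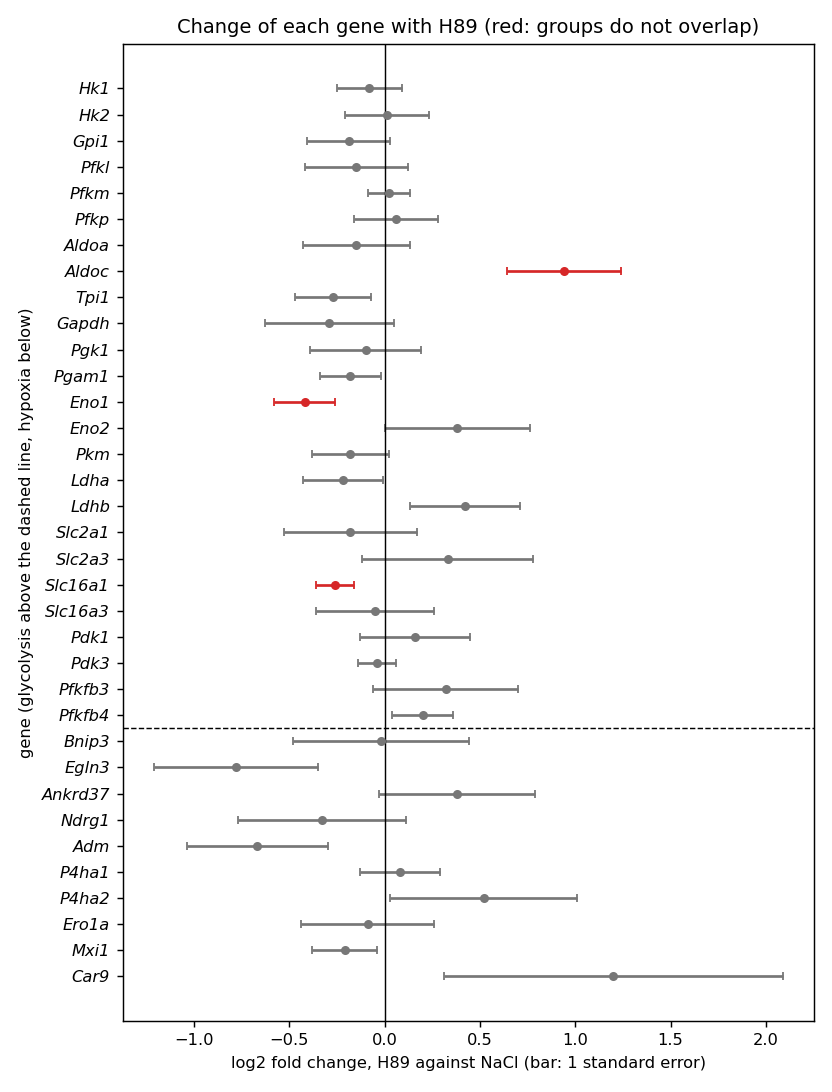
Log2 fold change of each of the 35 genes, H89 against NaCl (x axis, positive where H89 is higher), with bars of 1 standard error from edgeR. The 25 glycolysis genes stand above the dashed line and the 10 hypoxia genes below it. Aldoc (0.94), Eno1 (-0.42) and Slc16a1 (-0.26), in red, are the genes whose groups do not overlap, and Car9 (1.20) has the widest bar.

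The first steps trap and commit the sugar. Hk1 and Hk2, the hexokinases that phosphorylate glucose, lay at 114 to 183 and 46.8 to 82.5 normalized CPM over the 6 tumors, with log2 fold changes of -0.08 ± 0.17 (SE) and 0.01 ± 0.22. Gpi1, the isomerase that makes fructose 6-phosphate, was at 1626, 959.6 and 1105 normalized CPM in NaCl tumors 1, 2 and 3, and at 1202, 835 and 1189.9 in H89 tumors 1, 2 and 3. The groups overlapped (-0.19 ± 0.22). Per kilobase of merged exons, Pfkl was the most abundant phosphofructokinase gene at 28.4 CPM, before Pfkm at 10.9 and Pfkp at 3.73. These 3 genes form the tetramer of the committed step, and their log2 fold changes ran from -0.15 ± 0.27 (Pfkl) to 0.06 ± 0.22 (Pfkp).

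Aldolase cleaves the doubly phosphorylated sugar. Aldoa, the isozyme made by most cells, was at 1983, 959 and 1189.6 normalized CPM in NaCl tumors 1, 2 and 3 and at 1331, 911 and 1490.4 in H89 tumors 1, 2 and 3. These groups overlapped (log2 fold change -0.15 ± 0.28). Aldoc (ENSMUSG00000017390, chromosome 11 from 78322968 to 78327781 on the plus strand of GRCm38, a protein-coding gene of GENCODE M21), the isozyme known from brain, was at 3.74, 2.69 and 1.90 normalized CPM in NaCl tumors and at 6.03, 3.80 and 6.18 in H89 tumors. Every H89 tumor lay above every NaCl tumor, with 3.80 in H89 tumor 2 just above 3.74 in NaCl tumor 1. The log2 fold change was 0.94 ± 0.30 (SE), with an unadjusted p of 0.0140 and an adjusted p of 0.116 in edgeR's test. DESeq2 gave an adjusted p of 0.0401, and over the other alternatives the adjusted p ran up to 0.249. The exact two-sided permutation test gave p = 0.1, the smallest that 3 tumors against 3 allow. Aldoc rested on 52 to 203 estimated counts per tumor. Relative to Aldoa and per exon length, Aldoc came to 0.215, 0.318 and 0.182% in NaCl tumors and to 0.515, 0.475 and 0.471% in H89 tumors, again without overlap.

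Some markers of other cells were also higher in H89 tumors, though no T cell or fibroblast marker had an adjusted p under 0.05 in edgeR's test. The T cell list (10 of 11 markers tested, all but Trac) summed to 39.8, 21.8 and 17.6 normalized CPM in NaCl tumors and to 60.3, 33.9 and 85.6 in H89 tumors, the same order of tumors within each group as that of Aldoc. Of these 10 markers, 6 were higher in H89 tumors at an unadjusted p under 0.05, where 13.1% of all genes were. So were 5 of 10 fibroblast markers. For all 10 T cell markers, and for their sum, the groups overlapped. They did not overlap for 5 of the 10 fibroblast markers, against 30.7% of all genes. The fibroblast sum was 2850.1, 2678 and 2605 normalized CPM in NaCl and 3714, 3547 and 2929 in H89 tumors. Within the H89 group this sum was lowest in tumor 3, where Aldoc was highest. The part of these cells in the Aldoc value was not tested.

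The steps between aldolase and enolase showed no separation of the groups. Tpi1, which interconverts the products of aldolase, gave -0.27 ± 0.20 and Pgk1, which makes the first ATP, gave -0.10 ± 0.29. Pgam1, the phosphoglycerate mutase, gave -0.18 ± 0.16. Gapdh, the dehydrogenase between these steps, was at 669, 474 and 274 normalized CPM in NaCl and at 548, 319.7 and 293 in H89 tumors (-0.29 ± 0.34). It did not follow the order of tumors of its neighbours, being lowest in NaCl tumor 3 and in H89 tumor 3. Gapdh has many pseudogene copies in the mouse genome, and how far they shared its reads was not tested. By level per kilobase of merged exons, averaged over the 6 tumors, Pgk1 (544 CPM), Pkm (484), Ldha (471), Pgam1 (398), Eno1 (389), Tpi1 (383) and Aldoa (353) led the 35 genes. Slc2a3 (0.537), Ldhb (0.904) and Aldoc (1.24) were the lowest.

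Enolase makes phosphoenolpyruvate. Eno1 (ENSMUSG00000063524, chromosome 4 from 150236721 to 150248879, plus strand, protein-coding), the form of most dividing cells, was at 2956, 2051 and 2177 normalized CPM in NaCl and at 1914, 1541 and 1932 in H89 tumors. All H89 tumors lay below all NaCl tumors. The log2 fold change was -0.42 ± 0.16 (SE), with an unadjusted p of 0.0323 and an adjusted p of 0.166 in edgeR's test. It was -0.24 without NaCl tumor 1 (unadjusted p 0.111 in edgeR's test), -0.32 without H89 tumor 2 (unadjusted p 0.114) and -0.07 with quantile normalization. With library totals alone H89 tumor 3 (2053 CPM) overlapped NaCl tumor 2 (2031 CPM). Eno1b, a near-identical copy, took 33.6 to 37.0% of the counts of the pair, so the level of Eno1 alone is uncertain. The sum of both was 4473, 3087 and 3457 normalized CPM in NaCl and 2917, 2374 and 2981 in H89 tumors, and did not overlap at this scaling. With the TMM factors undone (1.063 for H89 tumor 3 and 0.9907 for NaCl tumor 2), the sum overlapped between these tumors, as Eno1 did. Eno2, the neuronal form, was at 184, 72.6 and 103 in NaCl and at 167, 92.3 and 209.7 normalized CPM in H89 tumors, with overlap (0.38 ± 0.38).

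Pkm, which encodes a pyruvate kinase, was at 3313, 2098 and 2300.0 normalized CPM in NaCl and at 2429.7, 1815 and 2562 in H89 tumors (-0.18 ± 0.20). Ldha, the lactate dehydrogenase subunit favoured in tumors, was at 2180.1, 1314 and 1547 in NaCl and at 1512, 1142 and 1663 normalized CPM in H89 tumors (-0.22 ± 0.21). Both groups overlapped for each gene, and NaCl tumor 1 was the highest of the 6. Ldhb, the subunit of oxidative tissues, was near the filter, at 0.972 to 1.79 normalized CPM and 27 to 59 estimated counts (0.42 ± 0.29).

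A share taken within a tumor does not depend on the scaling of libraries. Of the summed normalized CPM of the 17 enzyme genes, Eno1 took 16.6, 19.0 and 17.9% in NaCl tumors 1, 2 and 3 and 15.3, 16.6 and 14.5% in H89 tumors 1, 2 and 3. These shares overlapped, if only just, between H89 tumor 2 and NaCl tumor 1 (exact two-sided permutation p = 0.2). Pkm took 18.6 to 19.4% in NaCl and 19.2 to 19.6% in H89 tumors, and the shares of Ldha (12.2 to 12.7% and 12.1 to 12.5%) and Gpi1 (8.88 to 9.12% and 8.92 to 9.58%) overlapped as well. The share of Aldoc was small in every tumor, at 0.0157 to 0.0249% in NaCl and 0.0410 to 0.0481% in H89 tumors, without overlap. The share of Tpi1 was also without overlap, at 8.28 to 8.82% in NaCl and 8.07 to 8.23% in H89 tumors. Its gap was narrow, between 8.28% in NaCl tumor 1 and 8.23% in H89 tumor 2. For Aldoc and Tpi1 the exact two-sided permutation test gave p = 0.1, the smallest that 3 tumors against 3 allow. The shares of all other enzyme genes overlapped.

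Transporters and regulatory kinases frame the pathway. Slc16a1 (ENSMUSG00000032902, chromosome 3 from 104638668 to 104658462, plus strand, protein-coding) encodes MCT1, which carries lactate and pyruvate across the membrane. It was at 186, 187 and 224 normalized CPM in NaCl and at 171, 159.7 and 166 in H89 tumors, without overlap. The log2 fold change was -0.26 ± 0.10 (SE), with an unadjusted p of 0.0272 and an adjusted p of 0.153 in edgeR's test. It was -0.17 without NaCl tumor 3 (unadjusted p 0.0920 in edgeR's test), and -0.16 with quantile normalization. The unadjusted p was 0.0888 without H89 tumor 2 and 0.0515 without H89 tumor 3. Slc16a3, which encodes the lactate exporter MCT4, was at 117, 51.2 and 56.2 in NaCl and at 77.6, 55.4 and 83.8 normalized CPM in H89 tumors, with overlap (-0.05 ± 0.31). The glucose carriers Slc2a1 (GLUT1, -0.18 ± 0.35) and Slc2a3 (GLUT3, 0.33 ± 0.45) were not apart either, and Slc2a1 exceeded Slc2a3 in each of the 6 tumors.

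Pdk1 and Pdk3, kinases that switch off pyruvate dehydrogenase, had log2 fold changes of 0.16 ± 0.29 and -0.04 ± 0.10. Pfkfb3 and Pfkfb4 make fructose 2,6-bisphosphate, the activator of phosphofructokinase. Pfkfb3 was at 15.2, 14.6 and 15.4 normalized CPM in NaCl and at 10.8, 12.7 and 32.7 in H89 tumors. H89 tumor 3 alone was above the NaCl range, and the other H89 tumors were below it, so that the log2 fold change of 0.32 ± 0.38 became -0.36 without H89 tumor 3. Pfkfb4 lay between 5.56 and 7.94 (0.20 ± 0.16).

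**Figure D2:**
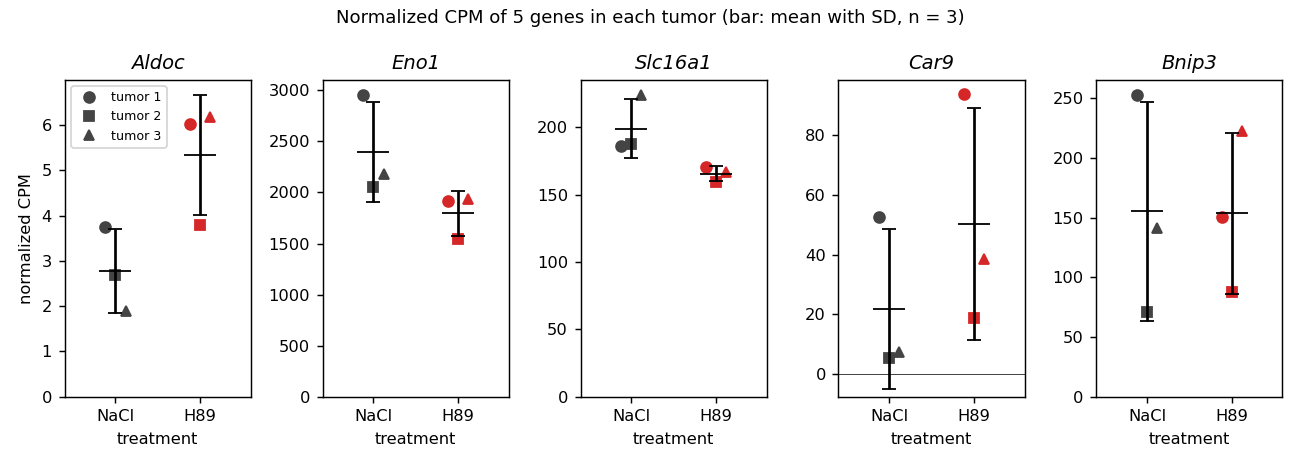
Normalized CPM (y axes) of Aldoc, Eno1, Slc16a1, Car9 and Bnip3 in each NaCl (grey) and H89 (red) tumor, with the mean and SD of 3 tumors as bars. For Aldoc, Eno1 and Slc16a1 the groups do not overlap, while Car9 runs from 5.19 to 52.7 in NaCl and from 18.7 to 93.7 in H89 tumors, and Bnip3 covers nearly the same range in both groups.

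None of the 10 hypoxia genes reached an unadjusted p under 0.05 (25.0% of all genes), and in all 10 the groups overlapped (30.7% of all genes were without overlap). Their median log2 fold change was -0.05 (4 above 0, 6 below), but 0.11 with quantile normalization, 0.03 without TMM, 0.24 without NaCl tumor 1 and 0.22 without H89 tumor 2. Without Car9 the median was -0.09. The 3 smallest p-values were those of Egln3, Adm and Car9.

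Car9 (ENSMUSG00000028463, chromosome 4 from 43506966 to 43513729, plus strand, protein-coding) encodes carbonic anhydrase IX, a surface enzyme that handles the acid of glycolytic cells and a classic HIF target. It was at 52.7, 5.19 and 7.50 normalized CPM in NaCl and at 93.7, 18.7 and 38.6 in H89 tumors. The lowest H89 tumor lay above NaCl tumors 2 and 3, and NaCl tumor 1 lay above 2 of the 3 H89 tumors. The log2 fold change was 1.20 ± 0.89 (SE), with an unadjusted p of 0.213 and an adjusted p of 0.430 in edgeR's test. Single tumors decided its size. Without NaCl tumor 1 it was 2.98 (unadjusted p 0.00361, adjusted p 0.106), and without H89 tumor 1 it was 0.39. The annotated antisense gene Gm12454 overlaps 214 bases of its exons, and whether the counting used strand is not given in the sources used here.

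The most negative estimates belonged to a feedback gene and a secreted factor. Egln3 (ENSMUSG00000035105, chromosome 12 from 54178981 to 54203860, minus strand, protein-coding), a prolyl hydroxylase that HIF itself induces, was at 6.80, 3.02 and 7.24 normalized CPM in NaCl and at 1.75, 3.10 and 5.02 in H89 tumors (-0.78 ± 0.43, unadjusted p 0.109, adjusted p 0.297 in edgeR's test). Adm (ENSMUSG00000030790, chromosome 7 from 110627661 to 110629820, plus strand, protein-coding), which encodes the vessel-dilating peptide adrenomedullin, was at 3.20, 5.15 and 7.79 in NaCl and at 2.39, 2.95 and 4.81 in H89 tumors (-0.67 ± 0.37, unadjusted p 0.111, adjusted p 0.300 in edgeR's test). For Egln3, H89 tumor 1 lay below the NaCl range and the other two inside it, and for Adm, H89 tumors 1 and 2 lay below the NaCl range and tumor 3 inside it. With 1 tumor left out, the estimate of Egln3 ran from -0.49 (without H89 tumor 1) to -1.22 (without H89 tumor 3) and that of Adm from -0.30 (without NaCl tumor 3) to -1.01 (without H89 tumor 3). Both rested on few reads, 49 to 198 estimated counts for Egln3 and 67 to 213 for Adm.

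The other hypoxia genes varied widely between tumors of a group. Bnip3, which directs mitochondria to mitophagy, was at 253, 71.1 and 142 normalized CPM in NaCl and at 151, 87.5 and 222 in H89 tumors (-0.02 ± 0.46). Ndrg1, a stress gene induced by low oxygen, was at 879.8, 274 and 576 in NaCl and at 489, 256 and 632 in H89 tumors (-0.33 ± 0.44). The H89 values of Bnip3 lay wholly inside the range of the NaCl values. Ero1a, the oxidase that forms disulfide bonds in the endoplasmic reticulum, gave -0.09 ± 0.35, and Mxi1, an antagonist of MYC, gave -0.21 ± 0.17. P4ha2, a catalytic subunit of the prolyl hydroxylase that matures collagen, was at 60.6, 15.2 and 30.2 in NaCl and at 66.0, 26.7 and 59.5 normalized CPM in H89 tumors (0.52 ± 0.49, but 0.16 without NaCl tumor 2 and 1.16 without NaCl tumor 1). Its paralog P4ha1 gave 0.08 ± 0.21 and the ankyrin repeat gene Ankrd37 gave 0.38 ± 0.41.

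The dominant feature of the 35 genes was a shared order of tumors inside each group. It was noticed in these data and is given as a description. NaCl tumor 1 was the highest of its group for 29 of the 35 genes (82.9%), as for 36.6% of all genes tested, and NaCl tumor 2 was the lowest for 29 (82.9%), as for 27.0% of all. Both held for 27 of the 35 (77.1%) and for 14.4% of all genes. In the H89 group, tumor 3 was the highest for 27 of the 35 (77.1%, all genes 32.9%) and tumor 2 the lowest for 29 (82.9%, all genes 25.6%). Both held for 22 (62.9%) and for 11.6% of all genes. The order was shared by enzymes (14 of 17 in NaCl, 13 of 17 in H89) and by hypoxia genes (8 of 10 and 5 of 10). Summed over the 35 genes, the level was 20719, 12105 and 14219.8 normalized CPM in NaCl and 14622, 10539.6 and 15806 in H89 tumors.

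**Figure D3:**
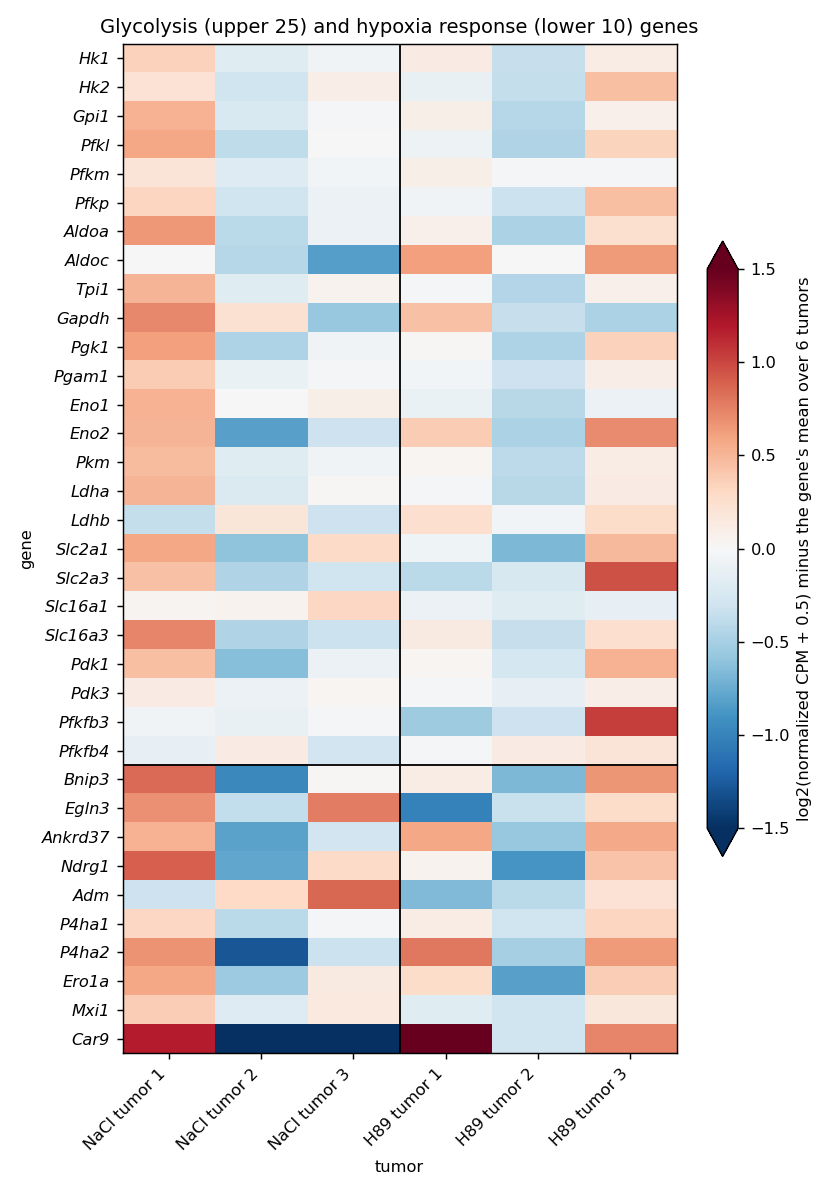
Level of the 35 genes (rows, the 25 glycolysis genes above the line) in the 3 NaCl and 3 H89 tumors (columns), as log2(normalized CPM + 0.5) minus the mean of the gene over the 6 tumors. Colours saturate at 1.5 in either direction, which some Car9 values exceed. NaCl tumor 1 and H89 tumor 3 are mostly red and NaCl tumor 2 and H89 tumor 2 mostly blue, with Gapdh, Ldhb, Pfkfb4 and Adm among the exceptions.

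The spread behind these orders was wide. The pooled SD within groups, on the log2 scale, had a median of 0.44 over the 35 genes and 0.15 over all genes tested. Among genes with a mean of at least 5 CPM it was 0.40 (30 of the 35 genes) and 0.14 (10463 genes). It was 0.35 for glycolysis and 0.65 for hypoxia genes. From the lowest to the highest NaCl tumor, Car9 spanned 10.2-fold, P4ha2 3.98-fold, Bnip3 3.56-fold and Ndrg1 3.21-fold. At the other end Pfkfb3 spanned 1.06-fold, Pdk3 1.16-fold and Slc16a1 1.21-fold among the same tumors.

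The subsets were compared by their mean level per tumor, each gene centred on its own mean over the 6 tumors. Glycolysis genes stood at 0.36, -0.25 and -0.10 (log2) in NaCl tumors 1, 2 and 3 and at 0.03, -0.31 and 0.27 in H89 tumors 1, 2 and 3. Hypoxia genes stood at 0.57, -0.71 and 0.00 in NaCl and at 0.21, -0.51 and 0.44 in H89 tumors. The hypoxia genes thus had the same highest and lowest tumor in each group as the glycolysis genes, with a larger swing. The difference between group means, H89 minus NaCl, was -0.00 for glycolysis (SD 0.32 in NaCl, 0.29 in H89, n = 3 each) and 0.09 for hypoxia (SD 0.64 and 0.49). Without Car9 the hypoxia difference was -0.08, so that its sign rested on that gene. The gap between the subsets, hypoxia minus glycolysis, was 0.22, -0.47 and 0.11 in NaCl and 0.18, -0.20 and 0.16 in H89 tumors, with overlap.

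**Figure D4:**
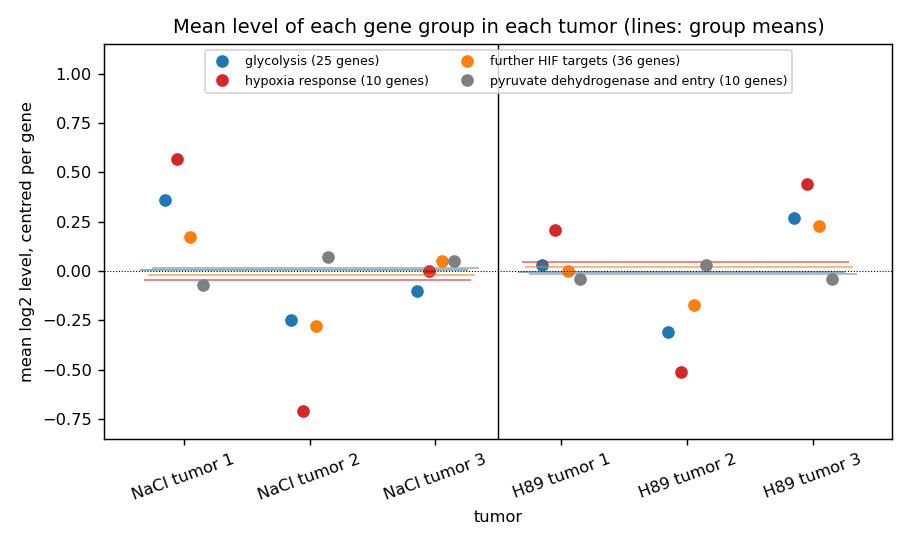
Mean log2 level, centred per gene (y axis), of 4 gene lists in each tumor (x axis), with group means as lines. Hypoxia (red), glycolysis (blue) and further HIF target genes (orange) are high in NaCl tumor 1 and H89 tumor 3 and low in NaCl tumor 2 and H89 tumor 2, while pyruvate dehydrogenase genes (grey) stay between -0.07 and 0.07.

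The same tumor order appeared in part among 36 further HIF targets, with 20 (55.6%) in the NaCl group and 13 (36.1%) in the H89 group. The order appeared in 0 of 10 genes of pyruvate dehydrogenase and pyruvate entry in either group. Among other lists it was seen in 0 of 10 proliferation genes and 0 of 9 endothelial markers in either group. It was seen in 4 of 10 T cell markers in the NaCl group and 7 of 10 in the H89 group, and in 2 and 5 of 6 neutrophil markers. HIF factors and regulators showed it in 6 and 5 of 13 genes, and macrophage markers in 0 and 3 of 10. Erythroid markers showed it in 0 and 3 of 4, and their sum was 88.2, 65.1 and 106 normalized CPM in NaCl and 29.5, 21.3 and 221 in H89 tumors, highest in H89 tumor 3. Endothelial markers summed to 117, 163.5 and 199 normalized CPM in NaCl and to 103, 152 and 119.8 in H89 tumors, so that NaCl tumor 1, the highest in glycolysis and hypoxia genes, was the lowest of its group. The part of these cells or of blood in the order was not tested.

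The factors that act on these genes were then read from a list of 13 tested HIF subunits, regulators and cofactors. Hif1a itself, the main alpha subunit, was at 113, 116 and 128 normalized CPM in NaCl and at 96.6, 121 and 151 in H89 tumors (0.04 ± 0.15). Epas1, which encodes HIF-2 alpha, gave 0.09 ± 0.17. HIF alpha subunits are set mainly by protein stability, which these data do not measure. Cited2, a HIF-induced protein that competes with HIF for its coactivators, was at 148, 153 and 144 in NaCl and at 102, 99.2 and 113 in H89 tumors, without overlap. It fell by 0.50 ± 0.08 on the log2 scale (adjusted p = 0.0415 in edgeR's test), the only gene of the list with an adjusted p under 0.05, and with 1 tumor left out its adjusted p ran from 0.0681 to 0.142. Egln2, a prolyl hydroxylase, gave -0.43 ± 0.10 (adjusted p = 0.0652 in edgeR's test) and Ep300, a coactivator, gave 0.29 ± 0.08 (adjusted p = 0.0890), both without overlap. Of the 13 genes, 3 (23.1%) had an unadjusted p under 0.05 in edgeR's test, near the 25.0% of all genes. The groups did not overlap for 4 of the 13 (30.8%), near the 30.7% of all genes.

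Of 36 further HIF targets tested, 3 were higher in H89 tumors and 0 lower at an unadjusted p under 0.05 (8.33%, against 25.0% of all genes), with a median log2 fold change of -0.01. The 3 were Lox, a collagen cross-linking oxidase (1.18 ± 0.36), Wsb1, a ubiquitin ligase subunit (0.34 ± 0.13), and Tfrc, the transferrin receptor (0.40 ± 0.17). Vegfa, the angiogenic factor, gave 0.13 ± 0.20. Among 13 other isozymes of the 35 genes, 3 were higher and 1 lower at the same threshold (30.8%, near the share of all genes). P4ha3 went from 0.537 ± 0.0608 (SD, n = 3) to 1.48 ± 0.456 normalized CPM, with an adjusted p of 0.0630 in edgeR's test. Its NaCl values, 0.475 to 0.597 normalized CPM, were near the filter of 0.5 CPM. Eno3, the muscle enolase, went from 110.4 ± 6.42 to 80.7 ± 5.69, with an adjusted p of 0.0504. Pfkfb2 gave 0.49 ± 0.17.

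Around glycolysis, none of the 10 genes of pyruvate dehydrogenase and pyruvate entry had an unadjusted p under 0.05, where 25.0% of all genes did. In the pentose phosphate pathway 1 of 7 was lower, Pgls (-0.32 ± 0.11), which opens the lactone ring. A mixed list of gluconeogenic genes, brakes on glycolysis and the GAPDH isozyme Gapdhs had 5 tested genes. Of these, 2 were lower at the same threshold, where 11.9% of all genes were, namely G6pc3 (-0.44 ± 0.11) and Pck2 (-0.47 ± 0.12), neither with an adjusted p under 0.05. Gapdhs gave 0.52 ± 0.26.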

How the data were processed

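RNA was sequenced from 3 NaCl and 3 H89 tumors. The table that the authors deposited, although named TPM, holds estimated counts per gene: totals differed between tumors (27067349 to 31958793), and of the values above 0, 58.6 to 61.4% were whole to within 0.01. The processing notes of the submitters name kallisto, DESeq2 and the build GRCm38. Versions, annotation and strand are not given in the sources used here. A table expected to hold TPM was therefore tested as counts.

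Estimated counts were rounded and genes with a mean of at least 0.5 CPM were kept. edgeR 4.0.16 (R 4.3.3) was run with TMM factors (0.956 to 1.06), the quasi-likelihood test and treatment as the only term. p-values were adjusted by Benjamini-Hochberg over 13118 genes, are two-sided and measure the spread between these tumors. The SE was derived from the log2 fold change and its F statistic. The test was tried on simulated data. Alternatives used limma 3.58.1 (with voom, log2 values with pseudocounts of 0.5 and 1, or quantile normalization), DESeq2 1.42.0, other filters, a replicate block and each tumor left out. CPM without TMM, Eno1 plus Eno1b, the hypoxia genes without Car9, and shares of the summed enzyme CPM were added after the data were seen. Positions come from GENCODE M21 on GRCm38, where Ero1a is listed as Ero1l. Lengths are merged exons. Overlapping genes on either strand can share reads.

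The 35 genes and the other lists were chosen with earlier results of these data known. Full values were given to genes past the adjusted threshold, to those without overlap between groups and to the 3 smallest p-values of each subset. From each other list, up to 3 genes with the smallest p were named.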

Additional observations from a re-analysis of the deposited data

How the results depend on the processing

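The 35 genes were refitted under up to 16 alternatives, giving 555 log2 fold changes, of which 490 kept the direction and 65, in 22 genes, reversed it. The number with an adjusted p under 0.05 was 0 of 35 in all but DESeq2, which called 1 (Aldoc). Over all genes that number was 208, against 80 with quantile normalization, 1392 with DESeq2 and 0 to 12 with 1 tumor left out. The number of the 35 with an unadjusted p under 0.05 was 3, against 1 with CPM without TMM and 1 to 7 with 1 tumor left out (7 without NaCl tumor 1, 5 without H89 tumor 3, 1 without H89 tumor 2). With 1 tumor left out, the median over the 35 ran from -0.27 to 0.16. The cause of these shifts was not tested.

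With the replicate number as a block, the count under an adjusted p of 0.05 was 0 over all genes, and 6 of the 35 had an unadjusted p under 0.05. The labels do not say whether the numbers pair the tumors. Deviations of same-numbered tumors from their group means correlated over genes with r = 0.163, 0.061 and -0.025. NaCl tumor 3 was closest to H89 tumor 2 (r = 0.35). Deviations from means of 3 tumors are not independent, so these values cannot decide whether tumors were paired.

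With quantile normalization the log2 fold change reversed for Hk1 (0.01), Gpi1 (0.03), Aldoa (0.11), Pgk1 (0.17), Pgam1 (0.04), Pkm (0.09), Ldha (0.08), Slc2a3 (-0.00), Slc16a3 (0.07), Bnip3 (0.14) and Ero1a (0.07). Hk2 reversed to -0.00 with no filter and to -0.01 with DESeq2, limma-voom, limma on either log2 scale and the replicate block. Slc16a3 reversed to 0.03 and Bnip3 to 0.07 with limma-voom, limma on either log2 scale, the replicate block and CPM without TMM. Bnip3 was 0.02 with a mean of at least 5 CPM, and Pdk3 was 0.04 with CPM without TMM. With 1 tumor left out the log2 fold changes ran from -0.18 to 0.09 for Hk1, from -0.26 to 0.18 for Hk2, from -0.34 to 0.06 for Gpi1, from -0.38 to 0.16 for Pfkl, from -0.07 to 0.13 for Pfkm and from -0.19 to 0.25 for Pfkp. They ran from -0.35 to 0.21 for Aldoa, from -0.62 to 0.05 for Gapdh, from -0.31 to 0.25 for Pgk1, from -0.31 to 0.05 for Pkm and from -0.37 to 0.01 for Ldha. The transporters and kinases ran from -0.51 to 0.08 for Slc2a1, from -0.31 to 0.71 for Slc2a3, from -0.26 to 0.43 for Slc16a3, from -0.09 to 0.47 for Pdk1, from -0.10 to 0.02 for Pdk3 and from -0.36 to 0.59 for Pfkfb3. The hypoxia genes ran from -0.38 to 0.53 for Bnip3, from -0.66 to 0.11 for Ndrg1, from -0.08 to 0.27 for P4ha1 and from -0.34 to 0.20 for Ero1a. Aldoc, Eno1 and Slc16a1 kept their direction under every alternative run. With 1 tumor left out, Aldoc, Eno1 and Slc16a1 ran from 0.73 to 1.22, from -0.52 to -0.24 and from -0.31 to -0.17. Depth limits mainly the genes with few counts, Aldoc, Ldhb, Slc2a3, Egln3 and Adm.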
